A study of Mus musculus with 2 samples.

Results

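The imprinted growth genes H19, Meg3, Dlk1, Peg3, Mest, Ndn, Plagl1, Grb10, Nnat and Peg10 were followed in stromal cells of the uterus, taken on day 4 of pregnancy from C57BL/6 mice with and without the homeobox transcription factors Msx1 and Msx2. A gene was represented by every probe set of the array whose annotation gave that gene as the only symbol. Of the 10 listed genes, 9 had such probe sets, 35 in all, out of 18193 genes and 34945 probe sets with 1 symbol. H19 had none, because the 1 probe set that names it also names a second gene, so H19 was not analysed here.

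The Msx1Msx2-null cells came from mice in which floxed alleles of both Msx1 and Msx2 were deleted by PRcre, a Cre recombinase driven by the progesterone receptor gene. PRcre therefore acts in cells of the uterus that express this receptor, and not in stroma alone. The control cells came from mice with the floxed alleles, and both groups of females had been mated with fertile males. Each group was 1 Affymetrix array of RNA pooled from the mice of a genotype, given as 5 mice in the design text and 4 in the extraction protocol. There was no replicate of either pool, so no value below has an error between animals or hybridizations, no p-value was computed, and a difference may reflect the genotype, the mice in the pools or the hybridization.

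Imprinted genes are transcribed mainly from the allele inherited from 1 parent, because a methylation mark set in the egg or the sperm is kept on 1 allele after fertilization. They lie in clusters that share an imprinting control region, and many act on growth of the embryo and placenta: genes expressed from the paternal allele tend to promote growth and those expressed from the maternal allele tend to restrain it. Plagl1, Peg3, Mest, Ndn, Peg10, Nnat and Dlk1 are expressed from the paternal allele, whereas H19 and Meg3 are expressed from the maternal allele and Grb10 from the maternal allele in most tissues other than neurons. The array measures total RNA of a gene and does not tell the alleles apart.

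The values are MAS5 signals, linear intensities in which the signal of mismatched probes is subtracted from that of matched probes. A floor at the 50th percentile of the probe sets of an array, a signal of 30.1 in the null array and 31.0 in the control array, stood in for detection calls. Both arrays had the same trimmed mean signal of 150.0. The targeted gene Msx1 had a signal of 23.0 in the null array, against 1581 in the control array, at least 52.6-fold lower, and Msx2 had 14.5 in the null array, against 63.7 in the control array, at least 2.12-fold lower. Whether these probe sets lie in the deleted parts is not given in the sources used here. The ratio of 3' to 5' signal, which goes up when RNA is degraded or labelled less completely, was for Gapdh 1.28 in the null array and 0.967 in the control array. For Actb it was 2.33 in the null array and 1.80 in the control array.

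For a view of the sequences behind these genes, 12 promoter windows of 8 members were taken from RefSeq (GRCm38.p6), each of 250 bases before and 50 after a transcription start. The Mest windows that start at chr6:30737800 and chr6:30737803 overlap almost wholly, so the 12 are not all separate promoters. None of the 12 held the Msx core TAATTG on either strand, which 8.0% of 32851 promoter windows of the same length hold, and none held the Plagl1 core, a run of 6 G followed by 4 C, which 0.0852% hold. At these shares so few windows can easily hold no match, so the absence says nothing about the members. The palindrome TGACGTCA, the full cyclic AMP response element bound by CREB and ATF proteins, was found in 2 of the 12 windows, those of Meg3 and Peg3, and in 1.79% of all windows. This motif was chosen after the sequences were read, and a match is a description of the letters and not a measured binding site. The windows of Meg3 (chr12:109540746-109541045, plus strand) and Peg3 (chr7:6730370-6730669, minus strand) are shown with the motif in capitals, since these are the matches.
Meg3: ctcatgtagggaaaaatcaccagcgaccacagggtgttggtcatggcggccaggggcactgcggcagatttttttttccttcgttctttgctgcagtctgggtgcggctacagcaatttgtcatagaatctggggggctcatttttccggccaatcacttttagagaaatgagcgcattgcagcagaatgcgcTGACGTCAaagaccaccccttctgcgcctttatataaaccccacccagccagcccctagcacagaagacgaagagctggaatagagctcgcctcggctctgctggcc
Peg3: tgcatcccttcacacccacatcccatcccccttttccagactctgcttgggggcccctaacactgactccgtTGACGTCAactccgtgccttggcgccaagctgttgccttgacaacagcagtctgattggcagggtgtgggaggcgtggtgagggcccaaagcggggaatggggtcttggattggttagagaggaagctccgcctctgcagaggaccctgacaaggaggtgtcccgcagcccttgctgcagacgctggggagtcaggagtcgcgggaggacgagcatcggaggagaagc

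The window of Plagl1 (chr10:13090582-13090881, plus strand) is shown because Plagl1 had the highest ratio of the members, with its 26 CG pairs, the bases that imprint marks methylate, in capitals. The median over all windows was 7 CG pairs. The Grb10 windows held 45 and 9, so the count of Plagl1 was not the highest of the members. Methylation was not measured in these samples.
Plagl1: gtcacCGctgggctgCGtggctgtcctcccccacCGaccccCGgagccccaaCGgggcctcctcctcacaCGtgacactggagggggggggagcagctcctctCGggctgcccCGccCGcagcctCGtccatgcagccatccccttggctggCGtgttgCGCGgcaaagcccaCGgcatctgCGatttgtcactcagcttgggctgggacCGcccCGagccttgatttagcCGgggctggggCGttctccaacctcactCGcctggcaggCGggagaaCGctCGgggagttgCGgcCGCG

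Of the 9 genes with probe sets, 6 were above the floor, Plagl1, Mest, Peg3, Ndn, Grb10 and Meg3, and none of the 6 differed by 2-fold between the null and the control cells. Their ratios lay between 1.11-fold and 1.46-fold, all higher in the null array on the brightest probe set of the gene. Over all 11833 genes above the floor, 3.39% passed 2-fold, 13.7% passed 1.5-fold and 52.3% were higher in the null array. Of the 6 members 0 passed 1.5-fold. At these shares 6 genes can easily give no call, so the absence says nothing about the members. The median log2 ratio of the 6 was 0.30, against 0.02 over all genes. Without the probe sets marked _x_at and _s_at, 4 of the 6 were higher in the null array, and with the median over the probe sets of a gene 5 of the 6 were. Dlk1, Nnat and Peg10 were under the floor in both arrays.

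**Figure D1:**
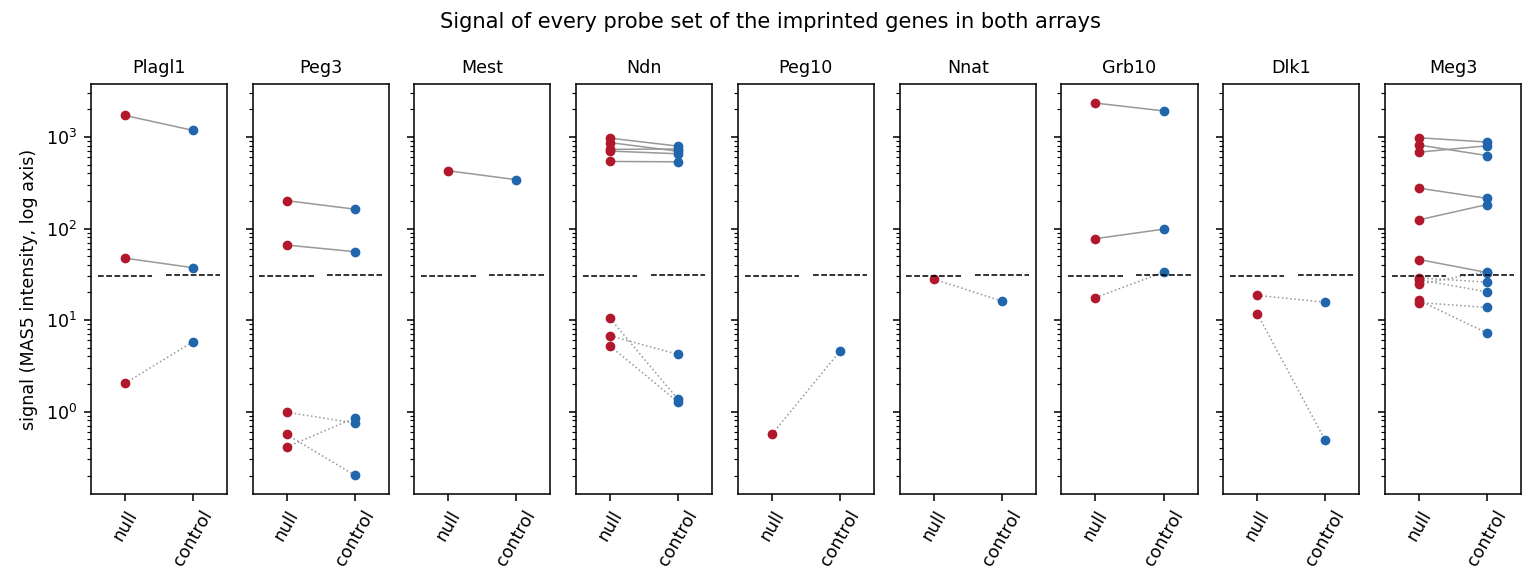
MAS5 signal (log axis) of each of the 35 probe sets of 9 imprinted genes in the null array (red, left) and the control array (blue, right), with a line joining the values of a probe set, dotted where a value was under the floor (dashed). The brightest lines are nearly flat, and Peg10, Nnat and Dlk1 lie under the floor in both arrays.

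As a scale of probe set noise, the log2 ratio of the brightest probe set of a gene was set against that of its second brightest over 4690 genes, which gave an SD of 0.27 for the ratio of a single probe set, 0.32 among the dimmest genes and 0.21 among the brightest. This SD covers probe noise and transcript forms and leaves out mice, pools and hybridizations. The 2 brightest probe sets of a gene had the same sign in 63.9% of these genes. Of the 20 member probe sets with a signal above the floor, 18 were above it in both arrays, 14 of them higher and 4 lower in the null array. Of the 18, 6 were of Meg3 and 5 of Ndn, and probe sets of the same gene are not independent. The share of all probe sets higher in the null array was not computed, and by gene it was 52.3%. No direction of the members is read from this count. The other 2 of the 20, of Meg3 and Grb10, were above the floor in the control array alone and lower in the null array.

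Among the paternally expressed genes, Plagl1 had the highest ratio. Plagl1, also called Zac1, encodes a zinc finger transcription factor that regulates other imprinted genes. Its probe set 1426208_x_at had a signal of 1721 in the null array, against 1183 in the control array, a log2 ratio of 0.54 and 1.46-fold higher. A ratio of at least this size in either direction was found for 15.8% of all genes above the floor. A dimmer probe set, 1438588_at, gave 47.5 in the null array and 37.3 in the control array, a log2 ratio of 0.35. The last Plagl1 probe set, 1450533_a_at, was under the floor, at 2.03 in the null array and 5.77 in the control array. The suffix _x_at marks a probe set with probes that may bind other transcripts, so the brighter Plagl1 value may include other RNA.

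Peg3 encodes a large zinc finger protein that acts in growth and maternal behaviour. Its signal was 202 in the null array, against 163 in the control array, on probe set 1433924_at, and 66.0 in the null array, against 55.8 in the control array, on 1417355_at. The log2 ratios of these probe sets were 0.31 and 0.24, close to each other and about as large as the SD of a single probe set. The other 3 Peg3 probe sets had signals under 1 in both arrays.

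Mest encodes a protein of the alpha/beta hydrolase fold found in growing mesodermal tissue and in adipocytes. Its only probe set had a signal of 427 in the null array, against 341 in the control array, a log2 ratio of 0.32 with no second probe set to compare.

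Ndn, which encodes the growth-suppressing protein necdin of the MAGE family, had 5 of its 8 probe sets above the floor, with ratios near 0 on 3 of the 5. On the brightest, 1435383_x_at, it had 971 in the null array and 794 in the control array, and on 1455792_x_at it had 868 in the null array and 698 in the control array. The probe sets 1435382_at and 1415923_at, which carry no warning of shared sequence, gave close signals in both arrays. The first had 732 in the null array and 740 in the control array. The second had 540 in the null array and 536 in the control array. The log2 ratio was thus 0.29 and 0.31 on the first pair but -0.01 and 0.01 on the second, while 1437853_x_at gave 0.10 on the same scale. Whether Ndn was higher or level thus depended on the probe set.

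**Figure D2:**
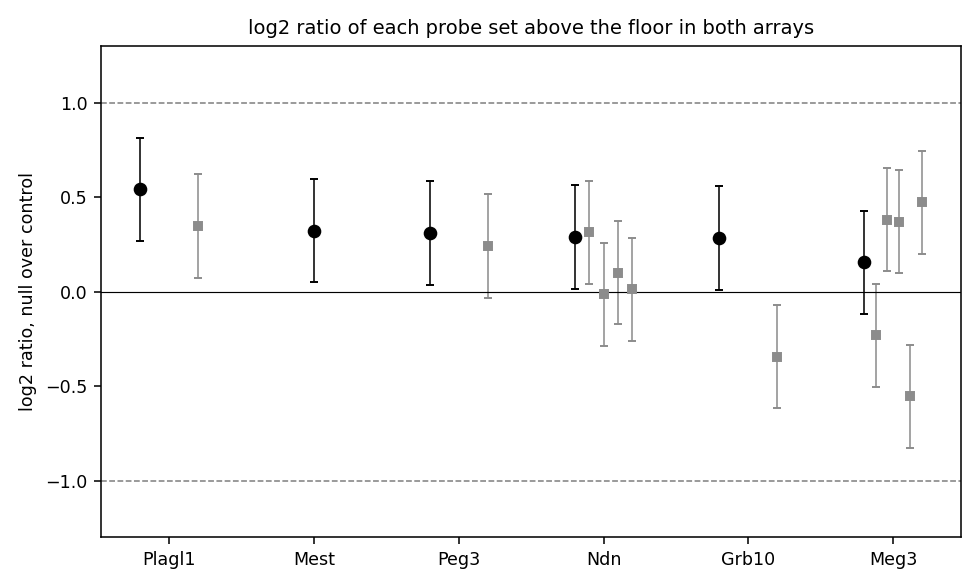
log2 ratio of null over control for each of the 18 member probe sets that passed the floor in both arrays, with the brightest probe set of a gene in black and the others in grey. Bars are the SD of a single probe set (0.27) and not an error between mice, and dashed lines mark 2-fold. No point reaches a dashed line, and Ndn, Grb10 and Meg3 have points on both sides of 0.

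The maternally expressed genes Grb10 and Meg3 gave probe sets of opposite sign, as did the paternally expressed Ndn, whose only negative log2 ratio was -0.01. Grb10 encodes an adaptor protein that binds the insulin and Igf1 receptors and restrains growth. Its probe set 1425458_a_at had 2348 in the null array, against 1928 in the control array, a log2 ratio of 0.28. In contrast, 1430164_a_at had 77.5 in the null array and 98.3 in the control array, a log2 ratio of -0.34. The dim 1425457_a_at had 17.6 in the null array, under the floor, and 33.3 in the control array, just above it, at least 1.11-fold lower. The median log2 ratio of the first 2 probe sets, which were measured in both arrays, was -0.03, so the direction of Grb10 depended on the probe set.

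Meg3, a long noncoding RNA of the Dlk1 cluster, had 11 probe sets, of which 6 were above the floor in both arrays. Of these, 4 were higher and 2 lower in the null array. The brightest, 1439380_x_at, had 980 in the null array and 880 in the control array, a log2 ratio of 0.15. The probe sets 1452183_a_at and 1426758_s_at had log2 ratios of 0.38 and 0.37, with 816 in the null array and 626 in the control array for the first of them. On the other side, 1452905_at had 683 in the null array and 802 in the control array, a log2 ratio of -0.23, and 1436713_s_at had 124 in the null array and 183 in the control array, a log2 ratio of -0.55. The dimmest of the 6, 1436057_at, gave a log2 ratio of 0.47. A further probe set, 1452906_at, had 24.7 in the null array, under the floor, and 33.8 in the control array, at least 1.13-fold lower. The SD over the 6 ratios above the floor was 0.41, and no direction of total Meg3 RNA can be stated. The SD of 0.27 over genes used only the 2 brightest probe sets of a gene, so it is not a like measure. Without the probe sets marked _x_at and _s_at the log2 ratio of Meg3 was -0.23.

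The 3 genes under the floor gave no usable ratio. Dlk1, which encodes a transmembrane protein related to the Notch ligands, had 18.6 in the null array and 15.7 in the control array on its brighter probe set. It had 11.7 in the null array and 0.483 in the control array on the other. Nnat, a small proteolipid of the endoplasmic reticulum, had 28.1 in the null array and 16.1 in the control array. Peg10, a gene derived from a retrotransposon and required for the placenta, had 0.562 in the null array and 4.57 in the control array. Such low signals do not show that these genes were not transcribed.

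Genes in the same clusters were read where they were above the floor. The list of neighbours holds imprinted and non-imprinted genes of the same chromosomal regions. Beside Dlk1 and Meg3, the noncoding RNA gene Rian had probe sets of opposite sign, as Meg3 did. Rian gave 310 in the null array, against 219 in the control array, on 1452899_at, 1.42-fold higher, but 42.3 in the null array, against 105 in the control array, on 1427580_a_at, 2.48-fold lower. In the same region Wars, a tryptophanyl-tRNA synthetase, had a log2 ratio of -0.66, and Wdr25 had a bound of 0.16.

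Igf2, the growth factor gene that shares its control region with H19, was dim, with 46.5 in the null array and 60.5 in the control array, a log2 ratio of -0.38, and Mrpl23 beside it had a log2 ratio of 0.06. Near Mest, Copg2 and Cep41 had log2 ratios of 0.10 and 0.23, and near Peg3, Zfp787 had 0.01 while Usp29, Zim1 and Zim3 were under the floor. Near Ndn, Ube3a and Atp10a had log2 ratios of 0.12 and -0.24, and Magel2, Mkrn3, Peg12 and Snrpn were under the floor in both arrays. On the dimmer probe sets 1416681_at and 1416682_at, Ube3a had log2 ratios of -0.09 and -0.16.

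Near Plagl1, Sf3b5, Phactr2 and Ltv1 had log2 ratios of 0.20, 0.01 and -0.32. Near Nnat, Blcap, Ctnnbl1 and Src had log2 ratios of 0.14, -0.10 and -0.11. Near Peg10, Asb4 and Ppp1r9a had log2 ratios of 0.63 and 0.27, whereas Sgce, Casd1, Pon3, Tfpi2 and Pon2 had -0.12, -0.18, -0.29, -0.60 and -0.75. On the dimmer probe set 1443518_at, Sgce had a log2 ratio of 0.40. Near Grb10, Cobl had a log2 ratio of 0.29, the lymphoid transcription factor gene Ikzf1 had 0.75 and Fignl1, a gene of DNA repair, was 2.27-fold higher, with 152 in the null array and 67.1 in the control array. Fignl1 was the only neighbour past 2-fold on the brightest probe set of the gene, and it is not in the list of imprinted genes.

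Among 64 further genes reported as imprinted in at least some mouse tissue, several of them in placenta or brain alone, 55 had a probe set with 1 symbol and 37 were above the floor. Of these 37, 16 were higher and 21 lower in the null array, with a median log2 ratio of -0.10. None passed 2-fold on its brightest probe set, 4 were past 1.5-fold higher and 3 past 1.5-fold lower, where all genes had 3.39% past 2-fold and 13.7% past 1.5-fold. On other probe sets Rian passed 2-fold, as given above, and so did Inpp5f. The Inpp5f probe set 1447757_x_at had 87.3 in the null array and 27.0, under the floor, in the control array, at least 2.81-fold higher. The brightest Inpp5f probe set was 1.32-fold higher. Gatm, which encodes the first enzyme of creatine synthesis, was just short of 2-fold at 1.99-fold higher, with 306 in the null array and 154 in the control array. Rasgrf1, a Ras exchange factor, and Kcnq1, a potassium channel, were under the floor in the control array and at least 1.77-fold higher each. Pon2, a lactonase of the paraoxonase family, was 1.68-fold lower, with 284 in the null array and 477 in the control array, and its second probe set above the floor gave -0.74 on the log2 scale. Cdkn1c, the maternally expressed inhibitor of cyclin-dependent kinases, had a log2 ratio of -0.45.

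**Figure D3:**
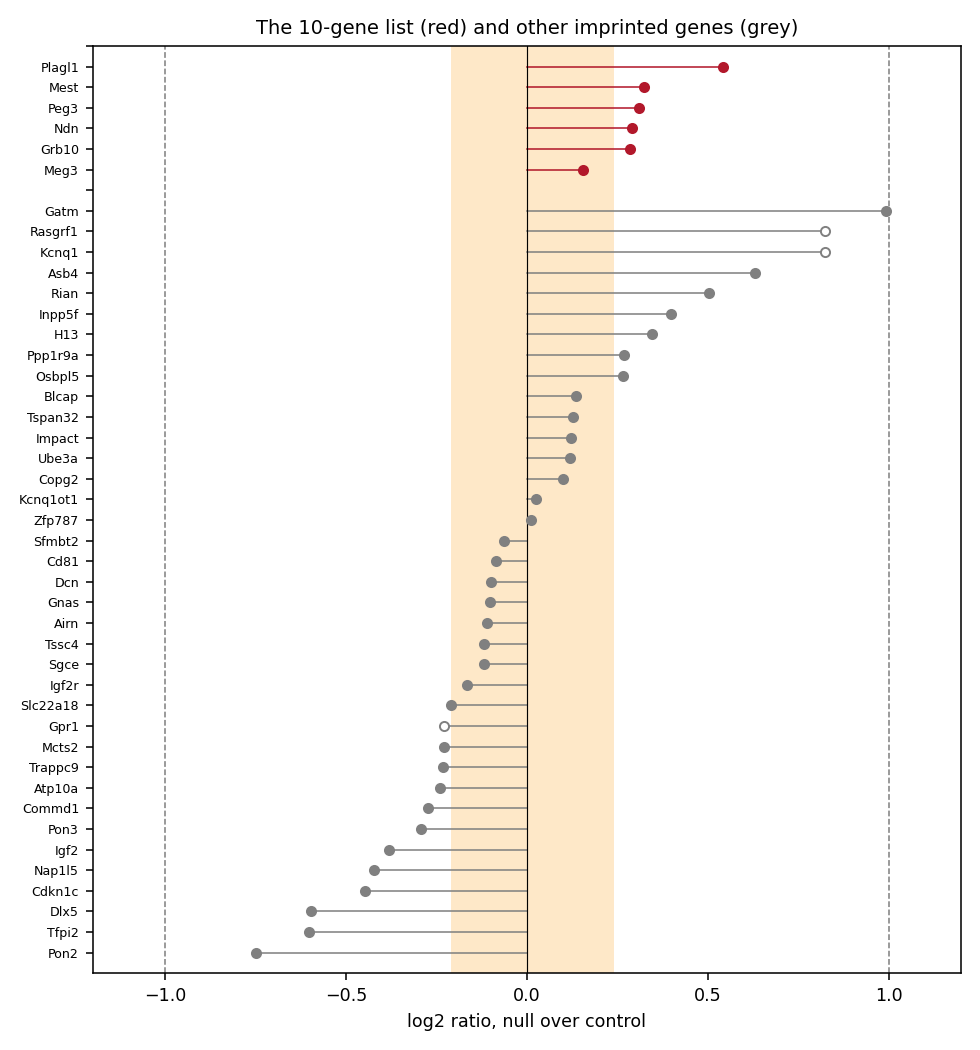
log2 ratio of null over control on the brightest probe set of each gene, for the 6 listed genes above the floor (red) and 37 other imprinted genes (grey), with open circles for bounds. The shaded band is the middle 50% of all 11833 genes, from -0.21 to 0.24, and dashed lines mark 2-fold. The red points lie between 0.15 and 0.54, and the grey points spread on both sides of 0.

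Partners of Grb10 and Igf2 in insulin and Igf signalling were mostly close between the arrays. Of 17 genes, 16 were above the floor, 4 higher and 12 lower in the null array, with a median log2 ratio of -0.10. The 1 gene past 2-fold was Igfbp3, an Igf-binding protein, with 354 in the null array and 1128 in the control array, 3.18-fold lower. The insulin receptor substrate genes Irs2 and Irs1 had log2 ratios of -0.67 and 0.47, and Igfbp5 had 0.57. The receptor genes Igf1r, Insr and Igf2r had log2 ratios of -0.47, -0.12 and -0.17, and Igf2r had 0.09 on the dimmer probe set 1424111_at.

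Of 12 genes that set, keep or, as the Tet genes do, remove DNA methylation or bind imprinted regions, 10 were above the floor, 5 higher and 5 lower in the null array, with a median log2 ratio of 0.03. Uhrf1, which brings Dnmt1 to newly replicated DNA, was 2.17-fold higher, with 669 in the null array and 308 in the control array. Dnmt1, the maintenance methyltransferase, had a log2 ratio of 0.64, Trim28 0.42 and the de novo methyltransferase Dnmt3a -0.35. The Dnmt1 and Trim28 values came from 1435122_x_at and 1456308_x_at, whose suffix marks probes that may bind other transcripts. Proliferation genes were higher in the same array, with 9 of 9 measured genes higher, 4 of them past 2-fold and a summed signal of 10118 in the null array and 6631 in the control array. The part of proliferation in the ratios of Uhrf1, Dnmt1 and the imprinted genes was not tested.

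Sums of signal below are over all genes of a list on the array, those under the floor included. The arrays held RNA of several cell types, and fewer cells of a type cannot be told apart from less RNA per cell. All 11 stromal fibroblast markers were above the floor, 8 of them higher in the null array, with a median log2 ratio of 0.15 and a summed signal of 61523 in the null array and 59056 in the control array. All 11 epithelial markers were above the floor too, although epithelium had been removed during isolation, with a sum of 9385 in the null array and 11349 in the control array and a median of -0.13. Of these 11, 9 were lower and 2 higher in the null array, and Foxa2 was 4.54-fold lower, Krt18 2.09-fold lower and Krt19 2.05-fold higher. The endothelial markers were lower in 9 of 9, with sums of 2453 in the null array and 3745 in the control array, and the pericyte markers in 6 of 7, with sums of 7629 in the null array and 10693 in the control array. The macrophage markers were lower in 8 of 8, with sums of 4033 in the null array and 6064 in the control array.

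Smooth muscle markers were higher in 7 of 8, with a median of 0.37 and sums of 12944 in the null array and 10035 in the control array. Natural killer and T cell markers were higher in 8 of 9 above the floor, with sums of 3625 in the null array and 2156 in the control array. The granzyme genes Gzma and Gzmb had log2 ratios of 0.89 and 0.87. Of the T cell genes, Cd3d was 2.16-fold higher, with 82.2 in the null array and 38.1 in the control array, Cd3g had a log2 ratio of -0.12, and Cd3e, Cd4 and Cd8a were below the floor on each array. Of 5 mesothelial markers, Msln, Upk3b and Lrrn4 were under the floor in both arrays, and the sums were 592 in the null array and 369 in the control array. Most of these sums came from Wt1, with 491 in the null array and 292 in the control array, while Upk1b had 49.7 in the null array and 49.9 in the control array. Of 9 blastocyst markers, 5 were under the floor in both arrays, Pou5f1, Nanog, Cdx2, Tead4 and Tfap2c. The other 4 had a median log2 ratio of 0.46, and 2 of these values were bounds. Eomes had 113 in the null array and 71.6 in the control array, Gata3 was at least 1.91-fold higher and Elf5 had a bound of 0.26 on the log2 scale. Which cell type the RNA of Eomes, Gata3 and Elf5 came from was not tested. Krt8, which is also in the epithelial list, was lower and made up most of the sums of 1946 in the null array and 2389 in the control array. Immediate early genes, which tissue digestion can induce, were lower in 10 of 10, with sums of 22257 in the null array and 31148 in the control array. The part of these cell types and states in the ratios of the imprinted genes was not tested.

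**Figure D4:**
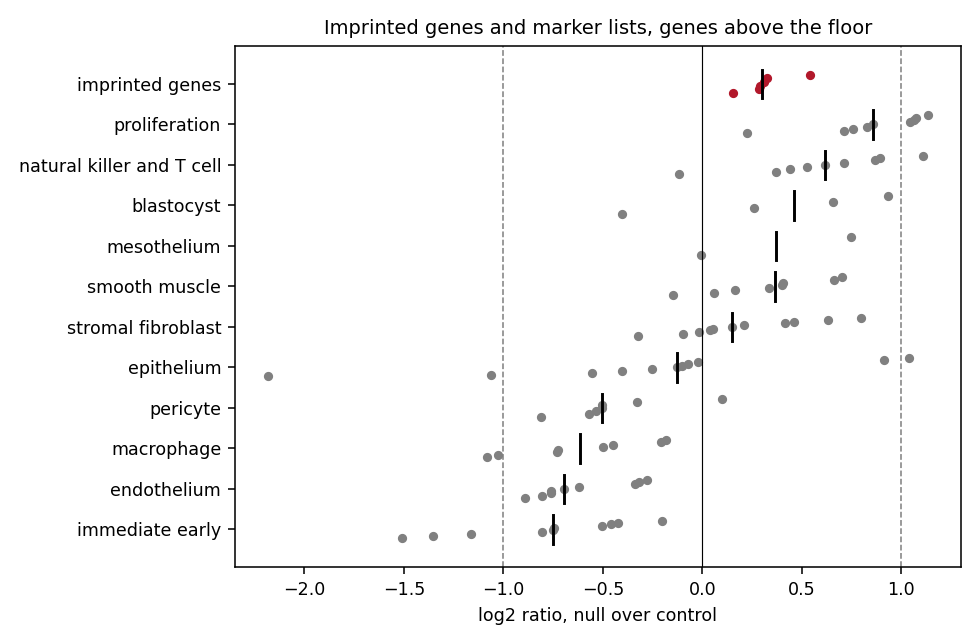
log2 ratio of null over control for the 6 imprinted genes above the floor (red, top) and for the genes above the floor of each marker list (grey), with the median of each as a black bar and dashed lines at 2-fold. The imprinted genes have a median of 0.30, between the stromal fibroblast list at 0.15 and the smooth muscle list at 0.37.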

How the data were processed

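Uterine stromal cells were profiled on 2 Affymetrix 3' arrays, 1 per genotype. Per the submitters' processing notes, the deposited intensity values were made with MAS5 in Affymetrix Expression Console 1. The equal trimmed means of the arrays show a common scaling. The scaling settings, detection calls and probe design build are not given in the sources used here.

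Of 45101 probe sets, 64 were controls, and 34945 had 1 gene symbol in the platform annotation, 932 several and 9160 none. The Entrez IDs of all 9 members with probe sets matched the GRCm38.p6 RefSeq gene table. Ratios are log2 of null over control, without further scaling (Python 3.11.15, pandas 2.3.3, numpy 2.4.6). Each gene took the ratio of its brightest probe set, by the mean log2 signal, also where that probe set was marked _x_at or _s_at. A signal under the floor, the 50th percentile of the array, was raised to it and the fold printed as "at least". Genes under the floor in both arrays were left out of counts, ratios and medians. With 1 array per genotype, no test was made and a gene was counted as different at 2-fold. The calling steps were tested on simulated data with planted changes well past 2-fold, larger than the ratio of any member above the floor. That test covers the code and does not bear on the member values.

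The members and lists were chosen with earlier results of these data known. The rule named all members, their cluster neighbours above the floor, other imprinted genes past 2-fold and up to 4 genes per context list with the largest ratios. The second probe sets of Rian and Inpp5f and the dimmer ones of Ube3a, Sgce and Igf2r were named after their values were seen. So were Cdkn1c, Igf1r, Insr, Igf2r and Cd3g, and the promoter motif TGACGTCA was chosen after the sequences were read. The alternatives were no floor, a floor at the 65th percentile, the median over probe sets, no _x_at or _s_at probe sets, median centring, quantile normalization, 16 added to the signal and a 1.5-fold threshold.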

Additional observations from a re-analysis of the deposited data

How the results depend on the processing

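The count of members past 2-fold was 0 under every alternative run except with no floor, where it was 1, Peg10, on signals under 5 in both arrays. Plagl1, Mest and Peg3 were higher in the null array under all 8 settings that give their ratio, between 0.35 and 0.56, 0.31 and 0.34, and 0.28 and 0.33 on the log2 scale. These 8 include the main setting, and most keep the same brightest probe set, so they are not separate checks of a direction. Only the median over probe sets and the removal of _x_at and _s_at probe sets could change the probe sets used. Neither could do so for Mest, which has a single probe set. The removal could not do so for Peg3 or Grb10 either, because the brightest probe set of each carries neither mark. Meg3, Ndn and Grb10 were higher in 7 of 8 settings each, with lowest values of -0.23 and -0.01 without _x_at and _s_at probe sets for Meg3 and Ndn. For Grb10 the median over probe sets gave -0.15, a bound set by the floor in the null array and not a measured ratio. The median of the members lay between 0.22 and 0.32, and that of the other imprinted genes between -0.11 and -0.08. The number of other imprinted genes past the threshold was 6 with no floor, 1 with median centring and 1 with quantile normalization, Gatm at 1.01 on the log2 scale in both, and 7 at 1.5-fold. The number of all genes past the threshold, 401, was 3569 with no floor, 220 with the higher floor, 264 with 16 added to the signal and 1623 at 1.5-fold. No paired analysis was possible because each genotype had 1 array, and no replicate could be left out for the same reason. Signals under the floor limit what can be said of Dlk1, Nnat and Peg10.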
